A study of Saccharomyces cerevisiae with 3 samples.

Results

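The genes described here are those of the large subunit proteins of the cytosolic ribosome of budding yeast, Saccharomyces cerevisiae. They were chosen by name alone, as every gene whose platform symbol is RPL with a number and an optional A or B, or is RPP0, RPP1 or RPP2 with its copy letter. This gave 78 of the 5574 genes with a symbol on the array, on 86 of its spots. By gene identifier all 78 were found among RefSeq's genes (assembly R64), where each still has the platform's symbol. Values were present for 77 of them on the array named G0, 77 on Y5 and 63 on Y10, and 62 were measured on all 3 arrays. No filter on low values was applied, so a member without a value simply had none among the spots used.

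The large subunit holds the peptidyl transferase centre, which joins amino acids, the tunnel through which the new peptide leaves, and a flexible stalk that recruits elongation factors. Most of its proteins are encoded in yeast by a pair of genes, A and B, whose products are nearly or fully identical, and a few by a single gene. Ribosomal protein mRNAs are among the most abundant mRNAs of growing yeast, and their transcription is known to respond quickly to the nutrient supply. An mRNA in the polysome fraction carries several ribosomes, whereas an mRNA in the mRNP fraction (messenger ribonucleoprotein) carries few or none. A short reading frame has room for fewer ribosomes than a long one.

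The study concerned yeast transferred rapidly from a carbon source that it ferments to one that it cannot ferment. There were 3 samples, labelled G0, Y5 and Y10, and each was a 2-colour array with Cy3-labelled mRNP RNA and Cy5-labelled RNA from a fraction that the labels call Poly, which is taken to mean polysomes. The labels annotate all 3 samples as stress by nutrient limitation. They give no strain, no medium and no unit for the numbers in the names, so G0, Y5 and Y10 are used only as names. Each group is 1 array, with no replicate and no dye swap, so no test across arrays was possible and nothing below has a p-value.

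A value below is the log2 ratio of the 2 channels of a spot, minus the median of its array, averaged over the spots of a gene. It is called the level of a gene on that array. The base of the logarithm was assumed to be 2. The direction is likely Poly over mRNP, from the usual convention of Cy5 over Cy3, but the sources used here do not give it, and with the opposite direction every sign turns. The ratio cannot tell less of an mRNA in the one fraction from more of it in the other, and a change shared by all mRNAs is removed by the centring. The technical error came from genes spotted 2 times: their repeat-spot SD was 0.453 on G0 (882 genes), 0.394 on Y5 (886 genes) and 0.434 on Y10 (453 genes). The SD of a difference between arrays was 0.448 (Y5 minus G0), 0.631 (Y10 minus G0) and 0.558 (Y10 minus Y5). It does not hold the spread between cultures or hybridisations. Every Y10 value rests on row numbers that were inferred from the data, since across spots taken by deposited row number its correlation was 0.0374 with G0 and 0.0155 with Y5. After renumbering these correlations were 0.211 and 0.463.

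Large subunit mRNAs lay around the array median on G0 and far below it on both later arrays. On G0 the median over 77 genes was -0.03, the middle of the list ran from -0.69 to 0.55 (quartiles), and the genes ranged from RPL41A at -2.61 to RPP0 at 1.55. On Y5 the median was -1.58 (quartiles -1.95 and -1.31), from RPL36A at -2.65 to RPP0 at 0.13. On Y10 the median over 63 genes was -1.34 (quartiles -1.92 and -0.91), from RPL20B at -3.24 to RPL11B at 0.18. The list was thus spread out on G0 (SD 0.878 over genes), closer together on Y5 (SD 0.562) and wider again on Y10 (SD 0.754), whereas over all genes, the members included, the SD was 0.698 (G0), 0.692 (Y5) and 0.597 (Y10).

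Counts over the members show the same shift. On G0 38 of 77 members (49.4%) lay above the array median, against 50.3% of all genes, and 12 (15.6%) lay at least 1 log2 unit below it, against 4.56%. On Y5 76 of 77 (98.7%) lay below the median, against 52.7% of all genes, and 67 (87.0%) by at least 1, against 6.63%. On Y10 61 of 63 (96.8%) lay below it, against 50.1%, and 45 (71.4%) by at least 1, against 5.76%. The member above the median on Y5 was RPP0, and those above it on Y10 were RPL11B at 0.18 and RPL22B at 0.12.

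**Figure D1:**
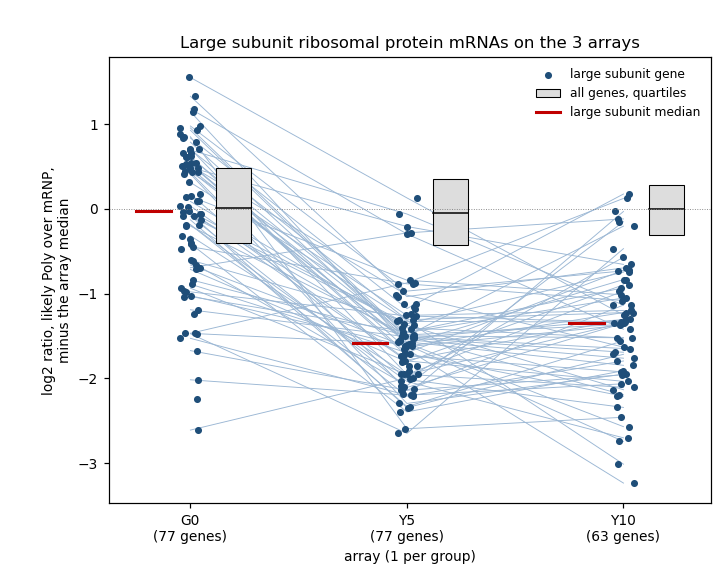
Levels of the large subunit genes on G0, Y5 and Y10 (log2 ratio, likely Poly over mRNP, minus the array median); blue points are genes, lines join the 62 genes on all 3 arrays, red bars are the list medians and grey boxes the quartiles and median of all genes. The list median stands at -0.03 on G0, -1.58 on Y5 and -1.34 on Y10, while all genes stay centred near 0.

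Between Y5 and G0 the median difference of the 77 genes was -1.51, a 2.85-fold lower ratio, and the median over all 5546 genes was -0.01. Members below 0 numbered 73 of 77 (94.8%), against 50.4% of all genes. Members at least 1 lower numbered 54 (70.1%), against 10.5% of all genes, and 0 were at least 1 higher, against 4.02%. The members above 0 were RPL41A (0.61), RPL22B (0.60), RPL31B (0.41) and RPL39 (0.06). Of the 2 that rest on 1 spot, RPL22B exceeded the 1-spot SD of 0.448 and RPL39 did not.

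Between Y10 and G0 the median difference of 62 genes was -1.61, a 3.05-fold lower ratio. Below 0 were 52 of 62 (83.9%), against 51.9% of all genes, and at least 1 lower were 40 (64.5%), against 12.1%. At least 1 higher were 4 members (6.45%), close to the 6.51% of all genes, namely RPL41A (2.04), RPL41B (1.99), RPL22B (1.59) and RPL36A (1.0045, just past the size rule). The differences spread more widely than those of Y5, with an SD over genes of 1.35 against 0.837 (0.877 over the same 62 genes). Over all genes the SD was 0.810 against 0.749, and the repeat-spot SD was 0.631 against 0.448. Both comparisons use the same G0 array, so their values are set side by side without a measure of agreement. Of the 62 genes, 37 were at least 1 lower in both, 6 in Y5 minus G0 only, 3 in Y10 minus G0 only and 16 in neither. The same joint counts over all genes were not made, so these describe the members alone.

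Y5 and Y10 differed little in the list median and much in single genes. The median of Y10 minus Y5 was 0.14 over 62 genes, and its sign turned, to -0.35, once all arrays had been given one spread. Below 0 were 27 members (43.5%), against 49.6% of all genes. At least 1 lower were 6 members (9.68%, against 5.30% of all genes), which were RPL13A (-1.70), RPL20B (-1.58), RPP0 (-1.38), RPL7A (-1.14), RPL4A (-1.12) and RPL3 (-1.08). At least 1 higher were 7 (11.3%, against 3.77%), which were RPL36A (2.18), RPL41B (2.17), RPL26B (1.94), RPL41A (1.43), RPL11B (1.35), RPL31A (1.30) and RPL13B (1.01). Among the 62 genes, G0 held the highest level for 52, Y10 for 10 and Y5 for 0. The lowest level was the one on Y5 for 32, on Y10 for 27 and on G0 for 3. How often each array held the highest or lowest level was not counted over all genes, so these numbers describe the members alone.

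**Figure D2:**
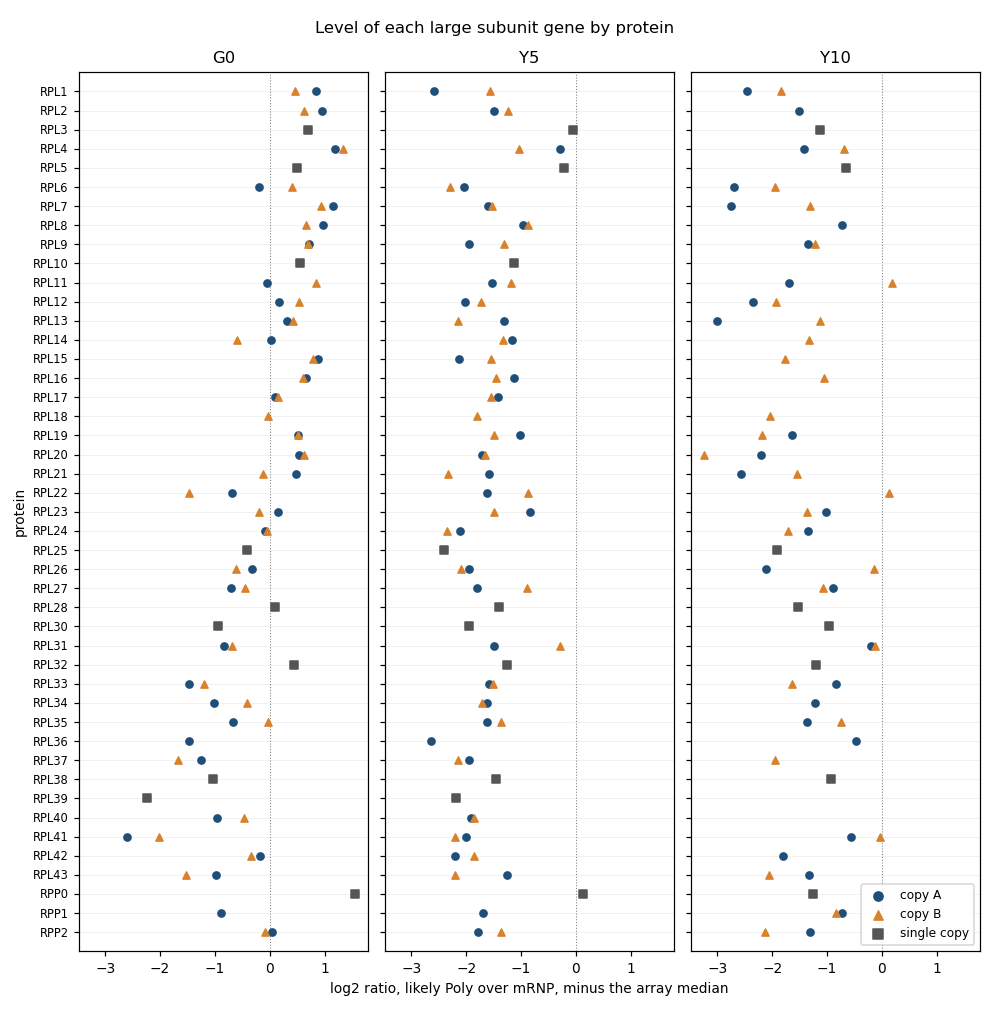
Level of every large subunit gene (x axis, log2 ratio minus the array median), 1 row per protein and 1 panel per array; circles are copy A, triangles copy B and squares single genes. On G0 the points run from right to left down the rows from RPL1 to RPL43, and on Y5 nearly all stand between -2.65 and -0.84, with RPP0, RPL3, RPL5, RPL4A and RPL31B to the right of them.

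The stalk that recruits elongation factors consists of P0, which anchors it to the ribosomal RNA, and the small acidic proteins P1 and P2, with the protein of the RPL12 genes at its base. RPP0 had the highest level of all members on G0, at 1.55, and stood at 0.13 on Y5 and -1.25 on Y10. RPP1A stood at -0.89, -1.70 and -0.72 on G0, Y5 and Y10. These 2 partners differed in the order of their levels, RPP0 being lower on each later array and RPP1A lowest on Y5 and near its G0 level on Y10. RPP2A lay at 0.03, -1.78 and -1.31 and RPP2B at -0.08, -1.37 and -2.13. RPP1B had a value on Y10 only, at -0.84. The base genes were close to each other, RPL12A at 0.17, -2.01 and -2.34 and RPL12B at 0.53, -1.73 and -1.92. Over this group of 6 genes the median difference from G0 was -1.62 on Y5 and -2.25 on Y10, with 5 at least 1 lower on each.

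Proteins of the catalytic centre, of the mobile L1 stalk beside the exit site of tRNA, and those bound to the small 5S RNA were the group with the highest G0 median, at 0.63, with 8 of 9 genes above the array median. Their median was -1.25 on Y5 (9 genes) and -1.52 on Y10 (7 genes). A G0 level above the array median was not particular to this group. The 15 genes named RPL13 to RPL20, all outside it, had a G0 median of 0.51, with 13 above 0. RPL1A and RPL1B encode the L1 stalk protein. RPL1A lay at 0.82 and 0.88 on its 2 spots on G0 and at -2.48 and -2.71 on Y5, and the spot with a value on Y10 read -2.46. Its differences from G0 were -3.45 on Y5, a 10.9-fold lower ratio and the largest of all members there, and -3.31 on Y10. RPL1B was lower by less, at 0.45, -1.57 and -1.85. RPL3, which reaches from the surface to the catalytic centre, stood at 0.70, -0.06 and -1.14. RPL5, which binds the 5S RNA, stood at 0.49, -0.21 and -0.66. On Y5 these 2 genes stood apart from the other 7 of the group, which lay at -1.12 or below. RPL11A and RPL11B encode the other 5S RNA binding protein. RPL11A read -0.26 and 0.15 on its 2 spots on G0, -1.45 and -1.60 on Y5, and -1.69 on Y10. RPL11B lay at 0.84, -1.18 and 0.18. RPL10, which is added late and completes the transfer RNA sites, stood at 0.55 on G0 and -1.12 on Y5. RPL2A lay at 0.96, -1.50 and -1.52, and RPL2B at 0.63 on G0 and -1.25 on Y5.

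Proteins that line the peptide tunnel or surround its exit had a median of -0.18 on G0 (14 genes), -1.50 on Y5 and -1.37 on Y10 (11 genes). The tunnel protein genes RPL4A and RPL4B were high on G0, at 1.18 and 1.33. On Y5 they stood at -0.30 and -1.04, and on Y10 at -1.42 and -0.70. Each copy was thus the lower of the pair on a different later array. RPL39, a very small protein in the tunnel wall, lay at the other end, at -2.24 on G0 and -2.19 on Y5. RPL25, a docking site for factors that meet the new peptide, lay at -0.41, -2.40 and -1.91. RPL31A lay at -0.83, -1.50 and -0.20. RPL31B, with 2 spots on every array, lay at -0.88 and -0.51 on G0, -0.27 and -0.30 on Y5, and -0.35 and 0.11 on Y10. Both of its differences from G0 were above 0, at 0.41 and 0.58, and so were those of each spot, 0.61 and 0.21 on Y5 and 0.53 and 0.62 on Y10. RPL26A (-0.32, -1.95 and -2.10) and RPL26B (-0.62, -2.09 and -0.15) were close on G0 and Y5 and 1.95 apart on Y10. The RPL17, RPL19 and RPL35 genes lay between -0.66 and 0.52 on G0 and between -1.63 and -1.02 on Y5.

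The proteins added late or forming bridges to the small subunit held the members that differed most from the rest of the list. RPL41A and RPL41B encode the smallest ribosomal protein, and each had 2 spots on every array. RPL41A read -2.86 and -2.36 on G0, -2.18 and -1.82 on Y5, and -0.45 and -0.69 on Y10. RPL41B read -2.10 and -1.93 on G0, -2.46 and -1.94 on Y5, and -0.39 and 0.33 on Y10. Both were thus far below the median on G0 and Y5 and near it on Y10, in each of their spots. Their differences from G0 on Y10 were 2.04 and 1.99, or 4.11-fold and 3.96-fold higher ratios. RPL24A (-0.09, -2.11 and -1.35) and RPL24B (-0.06, -2.35 and -1.72), whose protein bridges the subunits, followed the list as a whole. RPL40A and RPL40B, made as fusions to ubiquitin, lay at -0.97 and -0.47 on G0 and -1.92 and -1.86 on Y5.

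The remaining 42 measured genes had a median of -1.53 for Y5 minus G0, with 41 below 0 and 29 at least 1 lower. For Y10 minus G0 it was -1.59 (34 genes, 30 below 0 and 21 at least 1 lower). The lowest differences were those of RPL15A on Y5 (0.89 on G0 and -2.13 on Y5), and of RPL7A and RPL20B on Y10. RPL7A read 1.15, -1.60 and -2.74, and RPL20B read 0.62, -1.66 and -3.24, each on 1 spot. Their ratios were 14.8-fold and 14.5-fold lower on Y10 than on G0, log2 differences of -3.89 and -3.85. These sizes depended on the scaling: with one spread for all arrays the differences were -4.54 for RPL7A and -4.73 for RPL20B, and with each sector of spots centred on its own median they were -3.38 and -3.18. RPL7B read 0.88 and 0.98 on its 2 spots on G0, -1.48 and -1.57 on Y5 and -1.31 on Y10, so it was close to RPL7A on G0 and Y5 and above it on Y10. RPL13A (0.31, -1.32 and -3.01), RPL21A (0.48, -1.58 and -2.57) and RPL6B (0.41, -2.30 and -1.95) were next in this group by the mean of both differences, together with RPL20A (0.54, -1.71 and -2.21).

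At the upper end of the differences from G0 stood genes that were low already on G0. The G0 value enters these differences, so a low G0 level itself moves a gene towards this end. RPL22B, the less expressed copy of its pair, lay at -1.47, -0.87 and 0.12, so it was higher on each later array. RPL33A lay at -1.47 on both spots of G0, at -1.51 and -1.67 on Y5 and at -0.83 on Y10. RPL36A read -1.47, -2.65 and -0.47, so it was the lowest member on Y5 and stood above its G0 level on Y10. RPL38, a single-copy gene, lay at -1.03, -1.45 and -0.93. RPL43A, with 2 spots on G0 and Y5, read -1.13 and -0.82, then -1.28 and -1.25, and -1.34 on Y10. The RPL37 genes were low throughout, RPL37A at -1.25 on G0 and -1.94 on Y5, and RPL37B at -1.67, -2.14 and -1.96.

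The 10 single-copy genes measured on G0 spread widely there, with an SD over genes of 1.09. RPL28, the protein whose alteration gives cycloheximide resistance, read 0.09, -1.40 and -1.52, and RPL32 read 0.44, -1.26 and -1.20. RPL30, whose protein is known to bind its own transcript, read -0.94, -1.95 and -0.97. RPL30 was therefore near its G0 level on Y10, and the other 2 were not. Over the 10 single-copy genes the median of Y5 minus G0 was -1.22 (6 at least 1 lower), and over the 67 genes of pairs it was -1.55 (48 at least 1 lower).

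The levels on G0 followed the length of the reading frame. For 27 members that have no intron in their reading frame, the RefSeq gene length is the coding length, from 78 bases for RPL41A and RPL41B to 1164 for RPL3. Across these genes log2 length and the G0 level correlated with r = 0.932 (Spearman's rho 0.826). With 1 value per protein it was 0.927 (17 proteins), and without RPL41A and RPL41B 0.827 (25 genes). The 3 genes under 300 bases had a median of -2.02, the 8 from 300 to under 500 bases -0.01, the 9 from 500 to under 700 bases 0.71, the 4 from 700 to under 1000 bases 0.82 and the 3 longer ones 1.18. The median was thus higher in each longer bin, and the bins hold few genes each.

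On the later arrays this order was weaker or absent. On Y5 the correlation with log2 length was 0.559 (27 genes) and 0.588 without the RPL41 genes. On Y10 it was -0.298 (24 genes), and it turned to 0.111 without them. Genes outside both cytosolic subunits also had lower levels when short, with r = 0.296 on G0 (5417 genes), 0.440 on Y5 and 0.292 on Y10. These span all lengths, and for such genes under 1000 bases r was 0.226 on G0 (1931 genes), 0.249 on Y5 and 0.060 on Y10, the last near 0. With introns counted in the length, all large subunit genes had an r of 0.496 (G0), 0.255 (Y5) and -0.298 (Y10). The small subunit had 0.469, 0.214 and -0.177, the same order of the arrays. Among genes outside both cytosolic subunits, those of 500 to under 700 bases had a median of -0.19 on G0 and -0.32 on Y5. Members without an intron of that length had 0.71 and -1.54. By these medians, members of this length stood above other genes of like length on G0 and below them on Y5. The 3 members under 300 bases stood below other such genes already on G0, at -2.02 against -0.57. These members were RPL41A and RPL41B, of 78 bases each, and RPL38, of 237 bases. RPL38 lay at -1.03, near the lower quartile of the other genes under 300 bases, -0.98. These correlations are across genes of 1 array and describe that array. Genes are not replicates, the copies of a pair share their length, and the part of spot length or signal strength was not tested.

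**Figure D3:**
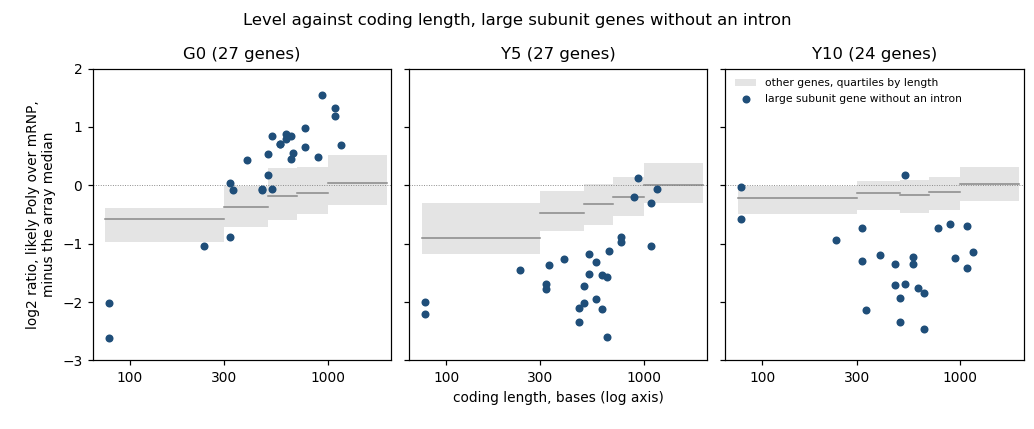
Level (log2 ratio minus the array median) against coding length in bases on a log axis, for large subunit genes without an intron (blue points) on each array; grey boxes and lines are the quartiles and medians of genes outside both cytosolic subunits in bins of length. On G0 the points run from -2.61 to 1.55, higher with length (r = 0.932), and on Y5 and Y10 the members of 300 to under 700 bases lie below the grey boxes, except RPL11B on Y10 at 0.18.

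For members with introns the RefSeq length includes them, so the number in the protein's name was used in its place. Ribosomal proteins were once numbered by their migration in gels, so these numbers run roughly from large to small proteins. Across the 50 RPL genes with an intron the number and the G0 level correlated with r = -0.742 (rho -0.758). On Y5 the value was -0.218, and on Y10 it was 0.340 (38 genes). Groups by number hold all RPL genes, with and without introns, and so overlap with the genes of the length comparison. The genes numbered 1 to 12 had a G0 median of 0.70, with 19 of 21 above 0, and those numbered 30 to 43 a median of -0.98, with 22 of 23 below 0. On Y5 the same groups had medians of -1.50 and -1.86, and on Y10 -1.47 (18 genes) and -0.97 (17 genes).

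The differences from G0 therefore differed between large and small proteins. Genes numbered 1 to 12 had a median difference from G0 of -2.01 on Y5 (19 of 21 at least 1 lower) and -2.27 on Y10 (17 of 18). Genes numbered 13 to 20 had -1.78 (14 of 15) and -2.35 (9 of 10), and genes numbered 21 to 29 had -1.48 (10 of 14) and -1.26 (9 of 13). Genes numbered 30 to 43 had -0.67 (8 of 23) and -0.20 (2 of 17). The G0 value enters each of these differences, so they in part repeat the spread of the G0 levels and are no separate result. On Y10 the levels of the outer groups also ran opposite to G0, at -1.47 for genes numbered 1 to 12 and -0.97 for 30 to 43.

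Of the 5 members closest to or above the array median on Y5, which were picked after their values were seen, 4 are among the 5 longest of the 27 members without an intron: RPP0, RPL3, RPL5 and RPL4A, at 0.13, -0.06, -0.21 and -0.30. The fifth was RPL31B at -0.28, and the next member was RPL23A at -0.84. On Y10 these 4 lay at -1.25, -1.14, -0.66 and -1.42, within the range of the other members. Since they were picked on their Y5 level, their lower level on Y10 is a description of these values.

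The A and B copies of a protein had similar levels on G0 and Y5. Over 32 pairs the median absolute difference between copies was 0.308 on G0 and 0.310 on Y5, beside 0.281 and 0.238 between repeat spots of the same gene. On Y10 it was 0.675 over 22 pairs, beside 0.333 between repeat spots. Pairs at least 1 apart numbered 0 on G0, 2 on Y5 (RPL1 and RPL31) and 6 on Y10 (RPL7, RPL11, RPL13, RPL20, RPL21 and RPL26). In 10.5%, 7.11% and 9.93% of genes with 2 spots, the spots were at least 1 apart on G0, Y5 and Y10. Copies of a pair share much of their coding sequence, the sequences on the spots were not used here, and how far a spot reads both copies was not tested.

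For Y5 minus G0 the median absolute difference between copies was 0.473, beside 0.312 between repeat spots. In 20 of 32 pairs both copies were at least 1 lower, in 6 pairs 1 copy was, and in 6 neither was. The pairs most alike were RPL20 (-2.25 for A and -2.27 for B), RPL12 (-2.19 and -2.27), RPL21 (-2.06 and -2.20) and RPL26 (-1.64 and -1.47). The pairs least alike were RPL22 (-0.93 and 0.60), RPL1 (-3.45 and -2.02), RPL31 (-0.66 and 0.41) and RPL13 (-1.63 and -2.57). The B copies of RPL13 and RPL21 lay at 0.43, -2.14 and -1.14 (RPL13B) and at -0.13, -2.33 and -1.56 (RPL21B) on G0, Y5 and Y10. RPL22A lay at -0.69 on G0 and -1.62 on Y5, so on Y5 it was below RPL22B, which it exceeded on G0. Neither copy was lower throughout, A having the lower difference in 14 pairs and B in 18.

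For Y10 minus G0 the median absolute difference between copies was 0.569 over 21 pairs, beside 0.520 between repeat spots. Both copies were at least 1 lower in 13 pairs and 1 copy in 2. RPL41 (2.04 and 1.99) and RPL31 (0.63 and 0.58) were pairs in which both copies were higher on Y10. The repeat-spot SD of this difference was 0.631, so the RPL31 values lay near it and those of RPL41 well above it. RPL26 (-1.79 and 0.47), RPL13 (-3.33 and -1.57), RPL7 (-3.89 and -2.23) and RPL21 (-3.05 and -1.43) were the pairs farthest apart. RPL20, RPL12 and RPL21 were among the pairs most alike for Y5, and on Y10 the RPL12 copies remained 0.061 apart whereas those of RPL20 and RPL21 were 1.10 and 1.62 apart.

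**Figure D4:**
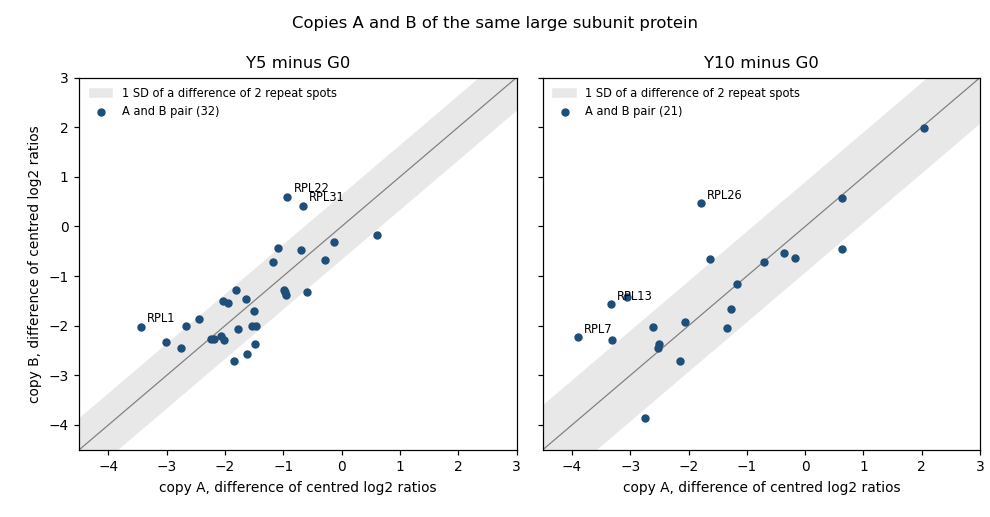
Difference from G0 of copy A (x axis) and copy B (y axis) of each large subunit protein, for Y5 (32 pairs) and Y10 (21 pairs), in log2 units; the grey band is 1 SD of a difference between 2 repeat spots around equality, and the 3 pairs farthest apart are named. More pairs lie inside the band than outside it, and RPL22, RPL1 and RPL31 lie farthest from equality on Y5, and RPL26, RPL13 and RPL7 on Y10.

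The list median of small subunit proteins (symbol RPS, 55 genes) was close to that of the large subunit on Y5 and less low on Y10, by a margin that varied with the genes counted. Their median difference from G0 was -1.47 on Y5 (54 genes, 40 at least 1 lower) and -1.03 on Y10 (46 genes, 25 at least 1 lower). The large minus the small subunit median of these differences was -0.04 on Y5 and -0.58 on Y10, and with 1 array per group this was not tested. Over genes on all 3 arrays the values were -0.17 on Y5 and -0.58 on Y10. With the last 60 spots of each Y10 sector added the Y10 value was -0.25. The size of the contrast between Y5 and Y10 thus varied with the genes and spots used. On G0, Y5 and Y10 the small subunit medians were -0.13, -1.56 and -1.16. Proteins of the large subunit of the mitochondrial ribosome (symbol MRPL, 34 genes), which translates inside mitochondria, had median differences from G0 of -0.31 on Y5 (2 at least 1 lower) and 0.14 on Y10 (27 genes, 2 at least 1 lower).

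**Figure D5:**
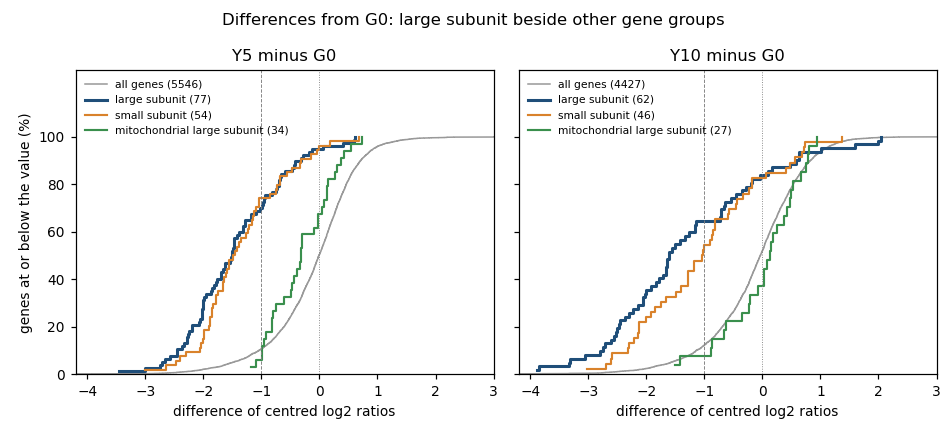
Share of genes (y axis, percent) at or below each difference from G0 (x axis, log2 units) for the large subunit, the small subunit, the mitochondrial large subunit and all genes; the dashed line marks -1. On Y5 the curves of both cytosolic subunits lie together, with 54 of 77 and 40 of 54 genes at or below -1, and on Y10 the counts are 40 of 62 and 25 of 46.

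Regulators of ribosomal protein genes had a median difference near 0 on Y5, with single genes well to both sides of it. They ranged from -0.92 (HMO1) to 0.85 (SFP1) there, with an SD over genes of 0.525, beside 0.448 for 1 spot. Of 15 such genes 0 were at least 1 lower or higher for Y5 minus G0, with a median of 0.12 (10 above 0). Over all genes 10.5% were at least 1 lower and 4.02% at least 1 higher, so a count of 0 among 15 says little about the list. RAP1, the factor that binds most of these promoters, differed by 0.60 on Y5 and 0.69 on Y10. SFP1, a nutrient-controlled activator, differed by 0.85 and 1.19. FHL1, which sits on the promoters with RAP1, differed by 0.06 and 0.14, and IFH1, its coactivator, by 0.77 on Y5. HMO1, a DNA-binding protein found on many of these promoters, had the lowest difference on both, at -0.92 and -1.07. On Y10, 11 of the 15 had a value, with a median of 0.26 and 1 at least 1 in each direction.

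Dedicated chaperones and late maturation factors of the large subunit stood mostly above 0 on Y5, where the genes of the proteins they handle stood mostly below. Of 18 genes, 17 were above 0 for Y5 minus G0, against 2751 of all 5546 genes, with a median of 0.52. At least 1 higher were 3 of the 18, against 4.02% of all genes. These were PUF6 (2.19), ARX1 (1.46) and REI1 (1.38), factors of assembly and export of the subunit. ACL4, the chaperone of the RPL4 protein, differed by 0.94, SYO1, which carries the RPL5 and RPL11 proteins into the nucleus, by 0.17, RRB1, the chaperone of RPL3, by 0.02 and SQT1, the chaperone of RPL10, by -0.37. For Y10 minus G0 the median was 0.08 over 12 genes, with 7 above 0 beside 2127 of all 4427 genes. All 12 were lower on Y10 than on Y5, against 49.6% of all genes, with a median of -0.46. ACL4 and its client genes RPL4A and RPL4B thus differed by 0.94, -1.48 and -2.36 on Y5.

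Among 4317 genes outside both cytosolic subunits with values on all 3 arrays, those nearest to the 3 list medians were ERP1 (distance 0.297), AIM41 (0.392), PFY1 (0.444), GCY1 (0.468) and QCR7 (0.508). The distance is Euclidean over the 3 levels. ERP1 read 0.11, -1.76 and -1.54, and PFY1, profilin, read 0.34, -1.59 and -1.58, each on 1 spot. By the same measure the nearest member was RPL23B, at 0.200, and RPP2A followed at 0.213.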

How the data were processed

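Per the labels, each of 3 2-colour arrays held mRNP RNA in Cy3 and Poly RNA in Cy5. The deposited table gives 1 log ratio per spot, taken as log2, for 8832 spots. For base, centring, direction, scanner, background correction and spot filters, the sources used here give nothing, and the series' design text names only a regression correlation. Before centring the array medians were 0.0735 (G0), 0.067 (Y5) and 0.071 (Y10). Without channel intensities, signal over background is unknown, and precision is limited by having 1 array per group.

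The platform annotation named the genes (1 symbol for 6623 spots, several for 0). Y10 was renumbered from 32 sectors of 252 spots to sectors of 276, and the first 192 spots of each were kept (6008 with a value). Arrays were centred on their medians, and spots averaged per gene, giving 5548, 5563 and 4446 genes. The size rule was 1 log2 unit. Lists were described by medians and counts beside those of all genes. The protein number in a gene's name and the list of genes without an intron (all 27 with lengths that are multiples of 3) come from general knowledge. Every member could be named, and full values were given for the 8 lowest and 8 highest by mean difference from G0, the stalk, single-copy genes, repeat-spot genes and the pairs most and least alike. The 2 single-copy genes RPL25 and RPL39 stand with the tunnel proteins. The members, lists and length comparison were chosen with earlier results of these data known. Python 3.11.15 with pandas 2.3.3 was used, and the steps were tested on simulated data. The simulated Y10 rows were laid out by the inferred numbering itself, so this could not test whether that numbering holds for the deposited rows. Alternatives are given in the closing section.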

Additional observations from a re-analysis of the deposited data

How the results depend on the processing

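The median differences of Y5 and Y10 from G0 kept their sign and stayed within the 95% order-statistic interval of the list median under these settings. They were no centring, one common spread, quantile normalization and centring by sector. Others were the first spot of a gene, genes on all 3 arrays, trimmed extremes and 1 value per protein. Some of these could change little. The array medians before centring were nearly equal, so no centring gave -1.52 for Y5 minus G0 and -1.63 for Y10 minus G0. The first spot alone concerns only the 8 members with 2 spots. For Y10 minus G0 the genes on all 3 arrays are the same 62 genes. The median of spots could change nothing here, since no member has more than 2 spots and it equals their mean. No paired analysis was possible because each group is 1 array. With one common spread the Y10 level was -1.75, Y10 minus Y5 -0.35 and its count at least 1 lower 13. Quantile normalization put the Y5 level at -1.45. The range of role group medians for Y10 minus G0, 2.61, became 2.05 with sector centring and 3.81 with the last 60 spots of Y10 added. With 1 value per protein, 31, 26 and 3 proteins were at least 1 lower for Y5 minus G0, Y10 minus G0 and Y10 minus Y5, each protein counting once. The length correlation was 0.827 without RPL41A and RPL41B.

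By deposited row number the Y10 level was -0.01, Y10 minus G0 0.0705 (10 genes at least 1 lower, role range 1.18, the genes of no named role 0.18), Y10 minus Y5 1.61 (0 genes), and large minus small subunit 0.15 and 0.17. With genes of 2 or more spots only 8 members were left on G0 and Y5, RPL41A and RPL41B among them, and 3 on Y10. Their levels were -0.84 on G0 and -0.12 on Y10. Y5 minus G0 was -0.23 (3 genes at least 1 lower, role range 2.87, tunnel group 0.41 from 1 gene), Y10 minus G0 1.99 (0 genes, role range 1.44) and Y10 minus Y5 1.43 (0 genes). Large minus small subunit was then 1.25, 3.28 and 1.31, and the single pair left, RPL41, was 0.795 apart on Y5 and 0.053 on Y10. RPL1A for Y10 minus G0 moved from -3.31 to -2.14 with the last 60 spots added, the list median to -1.18 and large minus small subunit to -0.25 (-0.17 on Y5 for genes on all 3 arrays). For Y10 minus G0, RPL7A and RPL20B were -4.54 and -4.73 with one common spread and -2.12 and -0.07 by deposited row number. With centring by sector RPL20B was -3.18 and RPP0 -2.13 there, and for Y5 minus G0 RPL1A was -2.87 and RPL7A -2.13. RPL20B gave no Y10 value with trimmed extremes. The cause of these changes was not tested. No array could be left out, since each group is 1 array.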
